A study of Drosophila melanogaster with 12 samples.

Results

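In the deposited expression table of 17521 genes, 60 were high in ph505 tumours and lower both in control discs and in metamorphed ph505 cells. These 60 genes were selected on the deposited values, which are log2 values of reads per gene scaled to 1000000 reads of the normalized library size (CPM). A gene had to average at least 4 over the 6 tumours, stand at least 2 above the mean of the 3 control samples and at least 2 above the mean of the 3 metamorphed samples, and be higher in every tumour than in every other sample. Their height over control and over metamorphed cells is therefore what chose them, and it is given here as a description with no test. No upper limit applied outside tumours, so a member need not be low there. Chd64, for example, averaged 533 CPM in control and 664 CPM in metamorphed cells. The rule did not set tumour ages against each other, and these were tested. It did require every tumour to lie above every other sample, which limits how far a member can fall at any age. Counts over the 60 between ages are therefore also shaped by the choice. The rule did not set metamorphed cells against control, but it used the values of both, so counts over the 60 in that comparison are shaped by the choice.

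The study asked what separates tumour cells that lack Polyhomeotic, a Polycomb group protein, from the same mutant cells once they have passed through metamorphosis. The ph505 allele removes the function of the neighbouring genes ph-p and ph-d, and GFP-marked homozygous clones were made by MARCM on an FRT19A chromosome with a flippase under the eyeless enhancer (ey-flp), which also acts in the leg and genital discs. The tumours came from such eye discs and were passed weekly through the abdomen of adult hosts for 4, 8 or 14 rounds, with 2 samples at each age. The metamorphed cells, 3 samples, were the same kind of ph505 clone recovered from adult flies, where they do not grow as tumours. The control, 3 samples, was wild-type eye disc of the late larva that had spent 1 day in an adult abdomen. The samples held no wild-type adult counterpart of the metamorphed cells. Metamorphed libraries were read on a different instrument from tumour and control libraries, and metamorphed cells were not transplanted. Between metamorphed cells and tumours, stage, tissue of origin, transplantation and instrument therefore cannot be told apart, and between metamorphed cells and control neither can genotype. Between tumours and control, genotype cannot be told apart from weeks of passage through hosts. The paper cites earlier evidence that transplantation alone alters the levels of some genes.

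Polycomb group proteins keep developmental genes silent by marking and compacting their chromatin, with the Hox genes as the classical targets. Loss of Polyhomeotic in discs is known for switching on secreted growth signals, among them the Unpaired cytokines of the JAK/STAT pathway. Metamorphosis is driven by the steroid ecdysone, which ends larval gene programmes and starts adult ones. The 60 genes share only their expression pattern, and their known roles are mixed.

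The 12 libraries were made from full-length cDNA (SMART-seq2), and the methods state that RNA was collected independently for each replicate of a group. Reads on genes, recovered from the deposited values as whole numbers, were fewest in the first control library, at 2072498, and most in the second metamorphed one, at 81447816. The second 14-week tumour stood apart, with a deposited scaling factor of 0.611 and 13.7% of its reads on 1 gene. Adult fat body markers, 11 genes, summed to 1.01 to 14.5 CPM in tumours, against 2490 to 10604 CPM in metamorphed cells and 158 to 988 CPM in control, with Fbp1, Fbp2, Lsp1alpha and Lsp1beta at 0 in every tumour. Haemocyte markers, 12 genes, summed to 43.1 to 97.6 CPM in tumours, against 553 to 824 CPM in metamorphed cells and 177 to 227 CPM in control. Disc epithelium markers were present throughout, at 1994 to 2773 CPM in tumours, 2415 to 3211 CPM in metamorphed cells and 3014 to 3507 CPM in control, and neuron markers were highest in control at 517 to 877 CPM. These marker levels moved with the groups, and their part in the levels of the 60 genes was not tested. ph-p itself was at 73.5 to 164 CPM in tumours, 206 to 223 CPM in metamorphed cells and 53.3 to 84.4 CPM in control, and since ph505 is a mutant allele whose transcript can still be read, its level does not check the labels. In bulk RNA, fewer cells expressing a gene and less RNA per cell cannot be told apart.

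Against control, the 60 genes stood higher in tumours by 2.00 to 7.12 on the deposited log2 scale, with a median of 2.53. Against metamorphed cells they stood higher in tumours by 2.02 to 12.2, with a median of 3.82. The widest gaps on the smaller side belonged to CG15756 at 7.12, the Hox gene Antp at 6.79, SmydA-6 at 6.56, mael at 5.93 and lncRNA:CR44295 at 5.81. Libraries with few or 0 reads enter such means at or near the deposited floor of -3.96, which widens these gaps. The 12.2, of MFS3 over metamorphed cells, also rests on that floor. On log2(CPM + 1), CG15756, Antp and SmydA-6 exceeded control by 5.39, 5.10 and 3.83. The fit over all genes used limma, which tests each gene with a spread moderated over all genes, on log2(CPM + 1) in 1 model of 5 groups, and a gene was called where its p, adjusted by Benjamini-Hochberg over all genes tested, was below 0.05. In it, all 60 were called higher in tumours than in control and lower in metamorphed cells than in tumours, the contrasts that chose them, so nothing is read from these counts. They were 54 over control and 59 against metamorphed cells on the deposited log2 values, 56 and 59 with a pseudocount of 0.1 CPM, and 52 and 60 with voom, which weights each value by its precision. Leaving out 1 control sample gave 54 to 58 over control. Of 10177 genes tested, 36.0% were called between tumours and control (14.4% higher in tumours, 21.6% lower) and 46.4% between metamorphed cells and tumours (28.5% higher in metamorphed cells, 18.0% lower). These splits over all genes moved with the scaling. In tumours against control, 1463 higher and 2201 lower became 943 and 2652 with CPM of total reads, 2128 and 1711 with quantile normalization and 1510 and 1497 with the exon length trend removed, and in metamorphed cells against tumours 2896 and 1829 became 2224 and 2902 with quantile normalization.

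**Figure D1:**
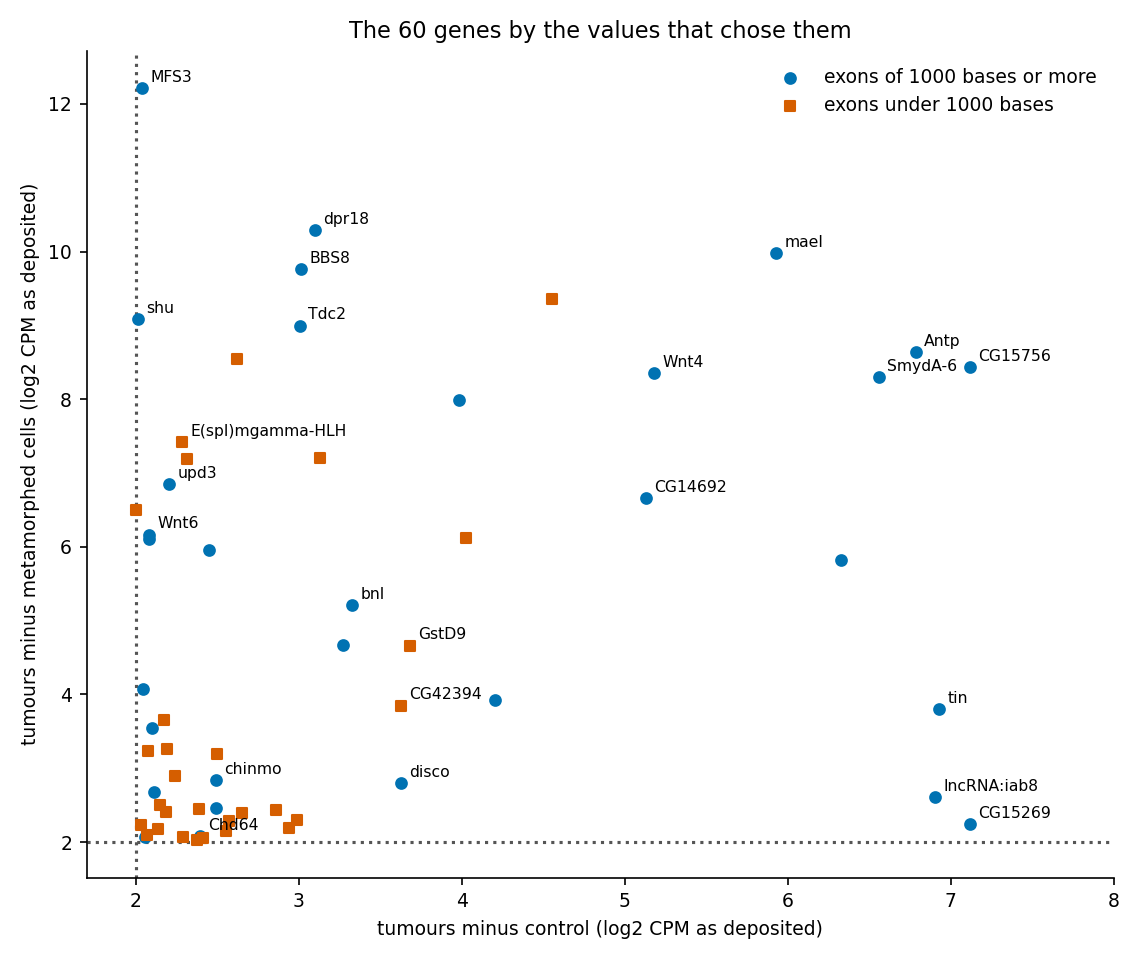
The 60 genes by the 2 values that chose them, tumours minus control (horizontal axis) and tumours minus metamorphed cells (vertical axis), both differences of group means in deposited log2 CPM, with dotted lines at the limit of 2. Genes with exons of 1000 bases or more are circles and shorter genes squares. Antp, SmydA-6, CG15756 and mael lie far from both limits, and most of the short genes lie near the lower left corner.

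Membership has an edge. Just inside it lay msd1, a subunit of the augmin complex that builds spindle microtubules, which exceeded control by 2.0028, then shu at 2.0133 over control and CG12868 at 2.0242 over metamorphed cells. Just outside lay mRpS21 at 1.99 over metamorphed cells, CG17219 at 1.99 over control and CG1896 at 1.98 over control. Another 6 genes met the limits on means and failed only because single samples overlapped, and these were CG3635, CG30383, CG8620, Ldh, CG32625 and Cpr65Ay.

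Secreted signals made up a first group of members, with 2 Wnt ligands, the JAK/STAT ligand upd3 and the FGF ligand bnl. Wnt4 (chromosome 2L, 7255419 to 7277171 in dm6) stood at 387 and 421 CPM in 4-week tumours, 313 and 329 CPM in 8-week tumours and 105 and 189 CPM in 14-week tumours, against 3.41, 2.28 and 0 CPM in metamorphed cells and 31.8, 2.47 and 4.69 CPM in control. The lowest tumour was thus above the highest control by a wide margin, and the means differed 22.4-fold over control and 153-fold over metamorphed cells. Wnt6, which lies 56542 bases from Wnt4 on the same arm (7333714 to 7352542) and is read from the opposite strand, stood at 92.9 and 89.9 CPM in 4-week tumours, 74.9 and 71.5 CPM in 8-week tumours and 43.7 and 102 CPM in 14-week tumours, against 3.50, 5.24 and 0 CPM in metamorphed cells and 14.5, 28.1 and 14.3 CPM in control. Its margin over control was only 2.08, and Wnt6 left the set when reads were divided by total reads instead of the deposited scaled library sizes (CPM of total reads), when the second 14-week tumour was left out, and when control replicate 1 or 3 was left out. Wnt10, the next gene after Wnt6, did not exceed 5.46 CPM in any library.

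The rest of the Wnt pathway list did not follow the ligands. Of the 15 other genes tested (ligands, Frizzled receptors, the co-receptor arr and intracellular components), 0 were called higher in tumours than in control and 9 lower, with a median log2 fold change of -0.88, against -0.19 over all genes tested. With the trend of values with exon length removed, as described below, 1 was higher and 3 were lower. Among them fz2, a receptor for Wg, averaged 6.24 ± 3.51 CPM in tumours, 13.6 ± 6.70 CPM in metamorphed cells and 127 ± 27.5 CPM in control (SD, n = 6, 3 and 3).

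The cytokine upd3, on chromosome X (18277233 to 18284596), was at 30.2 and 13.6 CPM in 4-week tumours, 34.1 and 41.0 CPM in 8-week tumours and 73.0 and 22.3 CPM in 14-week tumours. In metamorphed cells it had 4.84, 0 and 0 CPM, and in control 7.84, 5.87 and 6.65 CPM. The lowest tumour, at 13.6 CPM, was thus not far above the highest control, at 7.84 CPM. Its margin over control was 2.204, and upd3 left the set with CPM of total reads or without the first 14-week tumour. The other ligands of the family were measured beside it. upd2 had 15.004 to 46.5 CPM in tumours, 0 to 9.18 CPM in metamorphed cells and 1.92 to 21.9 CPM in control, a difference of 1.34 between tumours and control that was not called (limma, adjusted p = 0.212) and of -3.58 between metamorphed cells and tumours that was (adjusted p = 0.00236). upd1 overlapped between tumours (0.0409 to 8.47 CPM) and control (1.57 to 9.28 CPM) and was at 0 CPM in all metamorphed samples. Of 11 other JAK/STAT genes tested, from the receptor dome to the target Socs36E, 0 were called higher and 3 lower in tumours than in control, and the median was -0.45. That direction depended on exon length, since with its trend removed 2 were called higher and 0 lower, with a median of 0.27. Haemocytes are also known to make upd3. Their marker levels are given above, and their part in the level of upd3 was not tested.

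The FGF ligand bnl, which guides tracheal branches through the receptor Btl, stood at 13.5 and 52.5 CPM in 4-week tumours, 33.4 and 79.8 CPM in 8-week tumours and 42.9 and 32.9 CPM in 14-week tumours, against 2.00, 0.0420 and 4.61 CPM in metamorphed cells and 2.35, 3.86 and 5.31 CPM in control. It was 11.1-fold higher in tumours than in control on the means, and the 6 tumours varied among themselves by 2.57 on the log2 CPM scale. Among 17 other EGFR and FGF genes tested, 0 were called higher and 9 lower in tumours than in control, and the median was -0.94. With the length trend removed, 3 were called higher and 9 lower. Of 8 other tracheal markers, 2 were called higher and 3 lower, and the whole tracheal list summed to 767 to 3112 CPM in tumours, against 9420 to 15373 CPM in metamorphed cells and 3547 to 13366 CPM in control.

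Transcription factors formed a second group. Antp (3R, 6896253 to 6999228), the Hox gene of the thorax, stood at 114 and 206 CPM in 4-week tumours, 66.7 and 127 CPM in 8-week tumours and 45.0 and 54.5 CPM in 14-week tumours, against 0, 0 and 2.61 CPM in metamorphed cells and 8.62, 0.865 and 0 CPM in control. All the metamorphed reads of Antp came from 1 library, and the tumour mean was 32.3-fold over control and 117-fold over metamorphed cells. Antp was the one Hox gene of 8 tested that met the rule. Of the 7 others, 5 were called higher and 1 lower in tumours than in control (median 4.42), and 3 were called higher and 0 lower in metamorphed cells than in tumours.

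The homeobox gene tin (3R, 21378977 to 21381970), known from the heart and visceral muscle, stood at 118 and 105 CPM in 4-week tumours, 95.9 and 107 CPM in 8-week tumours and 83.5 and 39.3 CPM in 14-week tumours, against 8.74, 2.61 and 10.2 CPM in metamorphed cells and 6.27, 0.0309 and 0.526 CPM in control. Its margin was 6.93 over control and 3.80 over metamorphed cells. Muscle markers summed to 282 to 1208 CPM in tumours, 359 to 2022 CPM in metamorphed cells and 251 to 340 CPM in control. Of the 14 in the table, 4 (Mlc1, TpnC41C, TpnC73F and Prm) were at 0 in every tumour. Of the 13 tested, 1 was called higher and 4 lower in tumours than in control. Their part in the level of tin was not tested.

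The zinc finger gene disco, which acts in ventral appendage development, was at 99.4 and 180 CPM in 4-week tumours, 86.5 and 105 CPM in 8-week tumours and 92.5 and 310 CPM in 14-week tumours. In metamorphed cells it had 21.3, 19.5 and 15.2 CPM, and in control 10.98, 22.5 and 4.54 CPM. Those 2 groups lay close together, and the lowest tumour was above both.

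The BTB zinc finger gene chinmo (2L, 1651258 to 1704682), which maintains early larval identity in several tissues and is a target of the ecdysone-induced microRNA let-7, was among the most abundant of the 60. It stood at 3312 and 1808 CPM in 4-week tumours, 1311 and 1747 CPM in 8-week tumours and 1319 and 937 CPM in 14-week tumours, against 199, 211 and 267 CPM in metamorphed cells and 215, 513 and 210 CPM in control. Metamorphed cells and control overlapped, and the tumour mean was 5.56-fold over control and 7.71-fold over metamorphed cells. chinmo left the set with CPM of total reads. Of 14 other genes of the developmental timing list, 2 were called higher and 3 lower in tumours than in control, and the median was -0.20, which turned to 0.12 with quantile normalization and to 0.65 with the length trend removed. One of the higher ones was the transcription factor gene ab, a let-7 target like chinmo. It averaged 1611 ± 687 CPM in tumours, 11.4 ± 5.79 CPM in metamorphed cells and 407 ± 118 CPM in control (SD, n = 6, 3 and 3), a log2 fold change of 1.93 over control (limma, adjusted p = 0.00135) that missed the limit of the rule. These are RNA levels. The paper found no Abrupt protein by immunostaining in transplanted tumours, eye-antennal discs or metamorphed cells.

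The Notch target E(spl)mgamma-HLH, a basic helix-loop-helix repressor, stood at 606 and 1018 CPM in 4-week tumours, 336 and 510 CPM in 8-week tumours and 195 and 706 CPM in 14-week tumours, against 2.73, 2.55 and 3.25 CPM in metamorphed cells and 101, 83.6 and 123 CPM in control. The 3 groups did not overlap, and control lay well above metamorphed cells. Of the 13 other neuroblast genes tested, 1 was called higher and 8 lower in tumours than in control, and the median was -1.39. With the length trend removed, 2 were called higher and 6 lower. E(spl)mgamma-HLH left the set with CPM of total reads and with the trend of values with exon length removed.

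**Figure D2:**
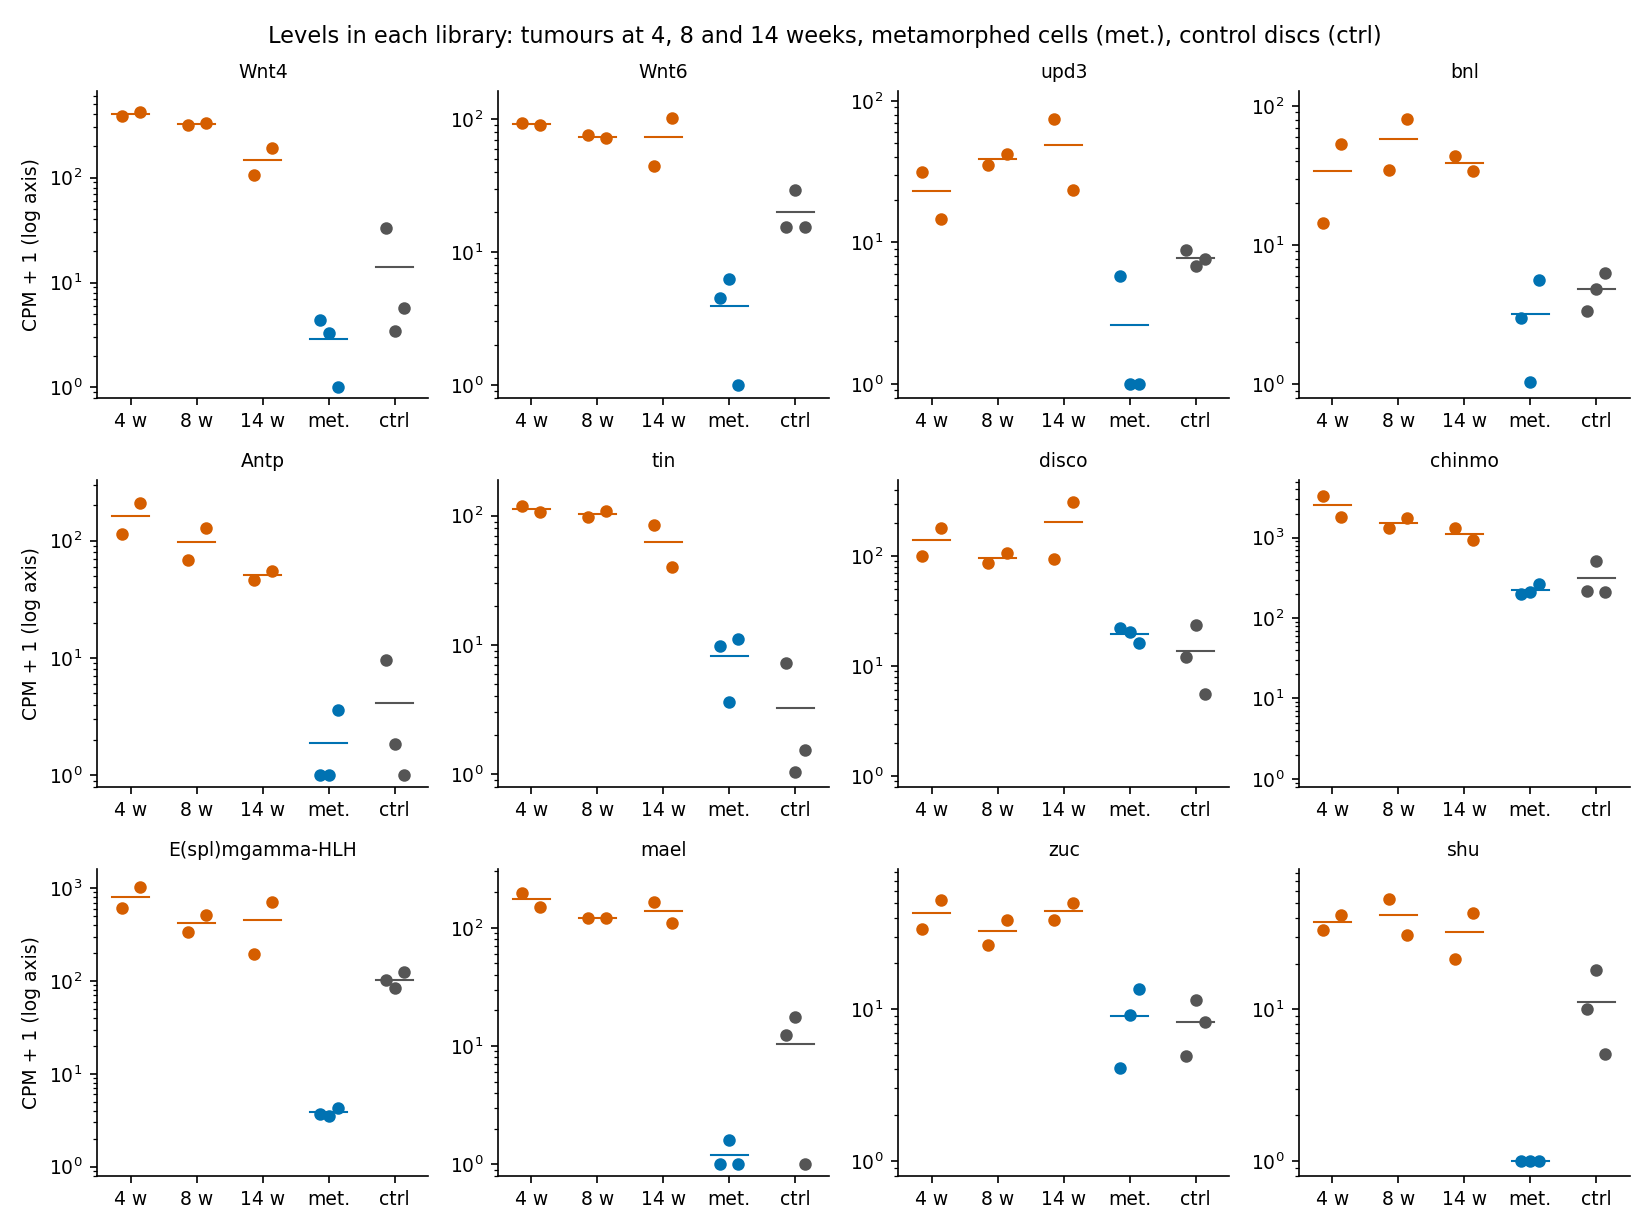
CPM + 1 on a log axis of 12 of the 60 genes in each library, with tumours at 4, 8 and 14 weeks of transplantation, metamorphed cells (met.) and control discs (ctrl) from left to right. Points are libraries and short lines are group means, over 2 tumours at each age and 3 samples in the other groups. Wnt4, Antp and chinmo are highest at 4 weeks, shu has 0 reads in every metamorphed library, and E(spl)mgamma-HLH is the gene whose control samples stand farthest above metamorphed cells.

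Genes of the piRNA pathway, which silences transposons in the germline and in the follicle cells around it, were a group of 3. mael, which acts in the nuclear branch of that pathway, stood at 197 and 150 CPM in 4-week tumours, 120 and 121 CPM in 8-week tumours and 165 and 108 CPM in 14-week tumours, against 0, 0.589 and 0 CPM in metamorphed cells and 11.4, 16.5 and 0 CPM in control. Its 6 tumours kept within 0.87 of each other on the log2 CPM scale, among the narrower ranges of the set, where the median was 2.01. zuc, the nuclease that makes piRNA ends, was at 32.5, 51.6, 25.6, 37.8, 37.6 and 49.2 CPM in the 6 tumours by age, against 3.07, 8.14 and 12.6 CPM in metamorphed cells and 3.92, 10.5 and 7.22 CPM in control. shu, a co-chaperone needed to load Piwi proteins, was at 32.3, 41.2, 52.2, 30.0, 20.4 and 42.5 CPM in the tumours, 0 CPM in every metamorphed sample and 9.02, 17.3 and 4.07 CPM in control. With 0 reads taken as fewer than 3 reads over the 3 metamorphed libraries together, or 0.0159 CPM, a floor for counting error only, the tumour mean of shu was at least 2286-fold higher.

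Of 27 other germline genes tested, 1 was called higher and 10 lower in tumours than in control. Their median was -1.22. Quantile normalization gave 3 higher and 4 lower, and removing the length trend gave 3 higher and 5 lower. The germline gene osk did not exceed 1.56 CPM in tumours and was at 0 CPM in metamorphed cells and at 19.99, 531 and 0.143 CPM in control, so that 1 control library holds most of it, while the ovary and follicle cell list as a whole summed to 91.8 to 282 CPM in tumours, 147 to 170 CPM in metamorphed cells and 263 to 772 CPM in control. The ovary and follicle cell sums of tumours thus overlapped with those of both other groups, and their part in the levels of mael, zuc and shu was not tested. mael shares exon sequence on the opposite strand with CG14450 and CG14451, and zuc with CG34163, and the sources used here do not say that the counting used strand.

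Genes known from neurons and cilia made up the next group. Tdc2 (2R, 6684745 to 6689974), the neuronal tyrosine decarboxylase that makes tyramine, was at 12.3 and 19.8 CPM in 4-week tumours, 28.2 and 33.3 CPM in 8-week tumours and 92.3 and 58.4 CPM in 14-week tumours, against 0 CPM in each metamorphed sample and 7.84, 2.10 and 3.92 CPM in control. dpr18, an immunoglobulin-domain cell surface gene of the Dpr family, was at 49.3 to 117 CPM in tumours with a median of 91.2, against 0 CPM in metamorphed cells and 8.23, 10.9 and 9.09 CPM in control. BBS8, a subunit of the BBSome that carries membrane proteins to cilia, was at 33.9 to 84.0 CPM in tumours with a median of 57.3, against 0 CPM in metamorphed cells and 8.23, 4.60 and 8.51 CPM in control. Against the same floor of 3 reads, the tumour means were at least 2555-fold higher than in metamorphed cells for Tdc2, 5374-fold for dpr18 and 3691-fold for BBS8. The capsid-like gene Arc2 was at 29.4 to 115.4 CPM in tumours, with 8.41 to 14.7 CPM in metamorphed cells and 4.21 to 17.2 CPM in control. Neuron markers themselves ran the other way, at 60.2 to 128 CPM in tumours and 517 to 877 CPM in control, with 0 of 9 called higher and 8 called lower in tumours. With the length trend removed, 1 was called higher and 7 lower.

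Enzymes, transporters and structural genes were the fifth group. MFS3, a member of the major facilitator family of transporters, was at 191 to 389 CPM in tumours with a median of 334, against 0 CPM in all metamorphed libraries and 76.8, 67.7 and 78.1 CPM in control. The bound on its tumour level over metamorphed cells was the highest of the 60, at least 19741-fold, while its margin over control was only 2.04. The SET and MYND domain gene SmydA-6 was at 11.4 to 35.5 CPM in tumours, 0 CPM in metamorphed cells (at least 1397-fold higher in tumours) and 2.35, 0 and 0 CPM in control. The glutathione transferase gene GstD9 was at 272 to 745 CPM in tumours, 7.90 to 21.7 CPM in metamorphed cells and 18.1 to 63.1 CPM in control. The spermidine synthase gene SpdS was at 37.2 to 110 CPM in tumours, 5.21 to 6.24 CPM in metamorphed cells and 10.5 to 22.5 CPM in control, and it shares exon sequence on the opposite strand with the Polycomb group gene Scm. The selenoprotein gene BthD was at 44.8 to 138 CPM in tumours, 0 to 2.39 CPM in metamorphed cells and 11.3 to 23.6 CPM in control. The calponin-domain gene Chd64 varied least of all 60 among the tumours, by 0.38 on the log2 CPM scale, with 2473 to 3219 CPM there, 599 to 730 CPM in metamorphed cells and 492 to 581 CPM in control.

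A sixth group held 11 short genes for basic cell functions. Among them, NHP2 (a core protein of H/ACA small nucleolar RNPs), Pop4 (RNase P and MRP), Lsm10 (the U7 particle that processes histone messages), Chrac-14 (a histone-fold chromatin remodelling subunit), Nnf1a (kinetochore) and msd1 (augmin) act in the nucleus or on the spindle. The others were mtSSB (mitochondrial DNA binding), mRpL51 (mitochondrial ribosome), ND-AGGG (respiratory complex I), Lamtor5 (the Ragulator complex on lysosomes) and Dtd (removal of D-amino acids from tRNA). Their margins were narrow, at 2.00 to 2.56 over control. NHP2 was at 289, 473, 242, 169, 345 and 1420 CPM in the 6 tumours by age, against 84.1, 63.4 and 66.3 CPM in metamorphed cells and 76.8, 108 and 67.1 CPM in control. The second 14-week tumour, at 1420 CPM, stood well above the next highest NHP2 level of 473 CPM, and it was the highest tumour for all 11 of these genes. ND-AGGG was at 1128 CPM in that tumour and 133 to 290 CPM in the other 5, against 48.7 to 86.0 CPM in metamorphed cells and 40.4 to 64.5 CPM in control. Without that library, 10 of the 11 left the set, all but Lsm10, and all 11 left it when the trend with exon length was removed.

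Non-coding RNAs were the seventh group, with 5 long non-coding RNAs and the pseudogene CR14798. lncRNA:iab8 (3R, 16831116 to 16923231), transcribed through the bithorax complex beside abd-A, was at 12.7 to 20.7 CPM in tumours, 4.93, 4.34 and 0.887 CPM in metamorphed cells and 0.392, 0.0309 and 0 CPM in control, where it had 2 reads in all. It shares exon sequence on the opposite strand with lncRNA:iab4. Its neighbour abd-A was called higher in tumours than in control (4.63, adjusted p = 3.51e-06) and averaged 38.3 ± 22.9 CPM in tumours and 32.2 ± 4.92 CPM in metamorphed cells (SD, n = 6 and 3), where the 2 groups overlapped. lncRNA:CR42491 was the most abundant of the 6, at 544 to 1214 CPM in tumours, 131 to 191 CPM in metamorphed cells and 183 to 262 CPM in control, and shares exons on the same strand with the ribosomal protein gene RpL22, so its reads are uncertain. lncRNA:CR44295 averaged 54.6 CPM in tumours, 1.27 CPM in metamorphed cells and 1.30 CPM in control. The remaining ones, lncRNA:CR44043, lncRNA:CR45566 and CR14798, averaged 20.5, 35.7 and 97.8 CPM in tumours, with 0.235, 7.46 and 1.18 CPM in metamorphed cells and 3.14, 4.15 and 15.2 CPM in control.

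The remaining 21 genes carry only a CG number and are named without a role. CG42394 (3R, 10849825 to 10851788) had the highest level of all 60 per length of exon, with 6950 CPM per kb of exon on the mean of the tumours, ahead of Chd64 at 1927 and lncRNA:CR42491 at 1294. It stood at 7576 and 4684 CPM in 4-week tumours, 2473 and 2147 CPM in 8-week tumours and 2819 and 6738 CPM in 14-week tumours, against 234, 188 and 456 CPM in metamorphed cells and 426, 151 and 491 CPM in control. CG15756, the gene with the widest margin, was at 43.3, 79.5, 87.7, 25.1, 237 and 156 CPM in the tumours by age, 0, 3.01 and 0 CPM in metamorphed cells and 4.31, 0.340 and 0.0478 CPM in control. CG15269 ranged over 20.04 to 61.8 CPM in tumours, 4.03 to 7.55 CPM in metamorphed cells and 0 to 1.96 CPM in control, so that metamorphed cells lay between the other groups. The smaller of the 2 margins was 5.13 for CG14692, 4.56 for CG15047, 4.02 for CG30196, 3.99 for CG34409 and 3.92 for CG6330, so these genes lay far from the limit. It was 3.27 for CG14695 and 3.13 for CG34008. The other 11, CG30195, CG32817, CG40472, CG3176, CG6310, CG33107, CG33509, CG42239, CG3552, CG14434 and CG12868, lay near the limit, at 2.02 to 2.43.

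What the members shared beyond the rule was looked at in the gene annotation (Ensembl release 115, on dm6). Of the 60, 54 are protein-coding genes, 5 non-coding RNAs and 1 a pseudogene, and they are spread over the large chromosome arms, with 12 on X, 10 on 2L, 12 on 2R, 9 on 3L and 17 on 3R. Their share on X was 20%, against 16.4% of all genes tested, and their share on 3R was 28.3%, against 23.8%. Exons of another gene overlapped on the opposite strand for 18 of them (30.0%, against 31.9% of all genes tested), and reads from such pairs cannot be told apart without strand. On the same strand they overlapped for 4 (6.67%, against 5.43%), where strand would not separate the reads. Those were CG34409, lncRNA:CR42491, CG3552 and MFS3.

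Few members were close neighbours. The nearest pair was CG32817 and CG3176 on X (479066 to 480166 and 481862 to 482768), 1695 bases apart and read from the same strand. Across the 6 tumours by age, CG32817 stood at 35.8, 46.6, 21.9, 19.6, 26.8 and 90.4 CPM, against 3.84, 5.35 and 12.1 CPM in metamorphed cells and 7.84, 5.90 and 6.12 CPM in control. CG3176 stood at 86.1, 97.3, 45.1, 36.4, 52.4 and 179.9 CPM in the tumours, against 10.01, 11.9 and 25.9 CPM in metamorphed cells and 12.9, 9.48 and 13.7 CPM in control. The order of the 6 tumours was the same for both genes, but also for the distant members Nnf1a and Lamtor5, so it is not particular to this pair. Whether CG32817 and CG3176 share sequence, which would split reads between them, was not tested.

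A second pair, CG30195 and CG30196 on 2R (22646616 to 22647245 and 22654805 to 22655392), lay 7559 bases apart on the same strand. CG30195 stood at 52.0, 81.1, 25.7, 28.1, 11.7 and 85.8 CPM in the tumours by age, against 6.64, 6.61 and 7.80 CPM in metamorphed cells and 10.2, 3.34 and 4.11 CPM in control. CG30196 stood at 43.8, 40.8, 10.7, 10.2, 4.85 and 40.5 CPM in the tumours, against 0.714, 0 and 0.312 CPM in metamorphed cells and 1.96, 1.27 and 0.478 CPM in control. In both genes the first 14-week tumour was the lowest and the second was among the 3 highest, as also in the distant members Pop4 and Wnt6. Another 5 genes lie between them, and none is a member. CG34446, the one next to CG30195, was called higher in tumours than in control (3.70, limma, adjusted p = 0.000830), a call lost with voom (adjusted p = 0.0502). It missed the rule with a margin of 1.45 over metamorphed cells. Its difference between metamorphed cells and tumours was -1.42 (adjusted p = 0.0934) and was called with CPM of total reads (adjusted p = 0.0376), with quantile normalization (adjusted p = 0.0442) and without the first 14-week tumour (adjusted p = 0.00147). Cyp6d2, the one next to CG30196, differed by 0.02 between tumours and control (adjusted p = 1).

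Exon length divided the members. The median exon length, summed over all exons of a gene, was 1085 bases in the members, from 430 in lncRNA:CR45566 to 12618 in chinmo, against 2008 bases over all genes tested. Exons summed to less than 1000 bases in 29 of the 60 (48.3%), against 18.0% of all genes tested. The 29 short members lay nearer to the limits, with median margins of 2.39 over control and 2.51 over metamorphed cells, than the 31 longer ones, with 3.10 and 5.96.

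Length also moved with the libraries. The median deviation of genes under 1000 bases minus that of genes of 4000 bases or more, on the log2(CPM + 1) scale over all genes tested, was 0.50 and 1.26 in the 4-week tumours, 0.30 and -0.38 in the 8-week tumours and 0.16 and 1.30 in the 14-week tumours. It was -0.24, -0.59 and 0.12 in metamorphed cells and -1.05, -1.12 and -0.92 in control. Short genes as a whole thus stood highest in the second 14-week tumour and the second 4-week tumour and lowest in control. The part of this shift in the choice of the short members was not tested.

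The second 14-week tumour was the highest of the 6 tumours for 26 members (43.3%), against 22.8% of all genes tested. It was the highest for 21 of the 29 short members and for 5 of the 31 longer ones. The second 8-week tumour was the lowest for 21 members and the first 14-week tumour for 16. The range over the 6 tumours on the log2 CPM scale had a median of 2.01.

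On that scale the 5 members with the widest range among tumours were CG42239 at 3.59, CG6310 at 3.35, CG15756 at 3.24, CG40472 at 3.21 and CG30196 at 3.18. CG42239, 433 bases of exon, stood at 259, 332, 212, 118, 250 and 1421 CPM in the tumours by age, against 68.9, 50.8 and 107 CPM in metamorphed cells and 45.5, 51.3 and 101 CPM in control. CG6310 stood at 68.7, 96.6, 59.0, 40.2, 67.0 and 410 CPM in the tumours, against 6.46, 10.1 and 11.4 CPM in metamorphed cells and 22.3, 16.4 and 18.6 CPM in control. CG40472 stood at 219.7, 305, 310, 136, 260.2 and 1258 CPM in the tumours, against 70.8, 42.7 and 70.0 CPM in metamorphed cells and 36.1, 53.0 and 63.5 CPM in control. In these 3 genes the second 14-week tumour was far above the other 5, while CG15756 was highest in the first 14-week tumour.

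**Figure D3:**
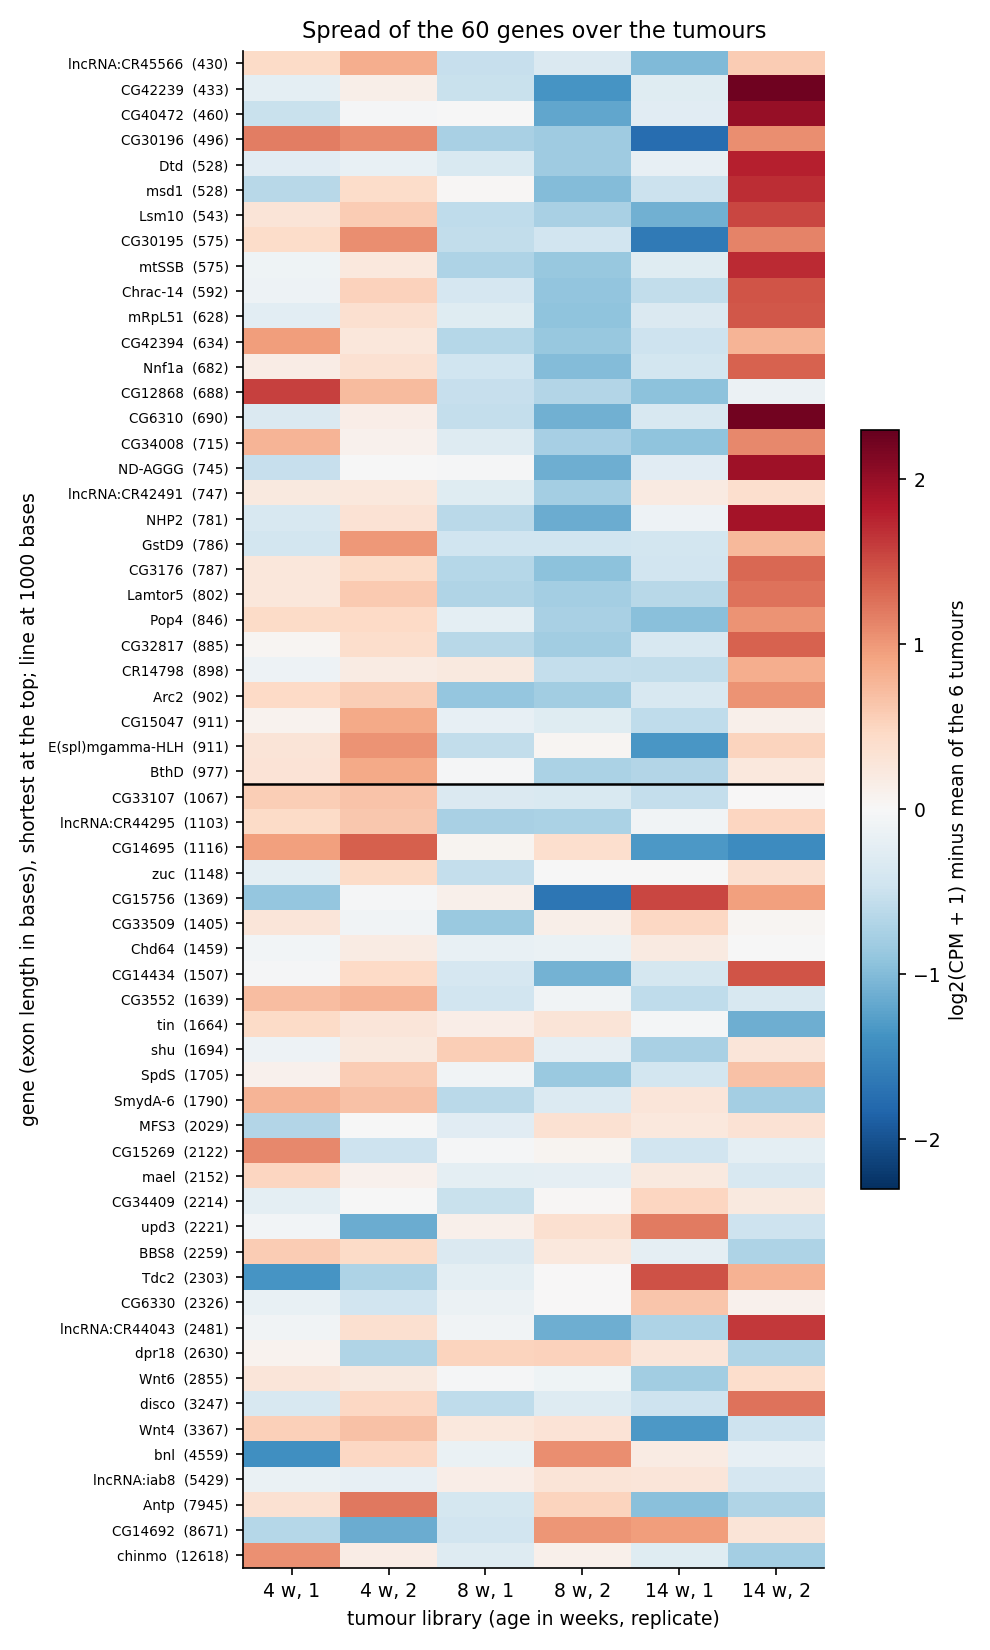
Deviation of each of the 60 genes from its own mean over the 6 tumours, in log2(CPM + 1), for the tumour libraries from 4 to 14 weeks (columns), with genes ordered by exon length, the shortest at the top, and a line at 1000 bases. Red is above the gene's mean and blue below. Above the line the last column, the second 14-week tumour, is red for nearly all genes, and below the line no column is so uniform.

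Membership was therefore recomputed under other settings. The same rule on CPM of total reads kept 35 of the 60, leaving out the second 14-week tumour kept 40, and removing from each library the smooth trend of its values with exon length kept 32 and brought in 29 other genes. Of the 29 short members, 15, 15 and 5 were kept under these 3 settings in turn, against 20, 25 and 27 of the 31 longer ones. The 5 short members kept with the length trend removed were CG15047, CG30196, GstD9, CG42394 and CG34008, and the 4 longer ones lost were CG14695, CG33107, CG33509 and CG14434.

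All 3 settings kept 23 members. They were the Wnt ligand Wnt4, the FGF ligand bnl, the transcription factor genes Antp, tin and disco, the piRNA genes mael and zuc, the neuronal and ciliary genes Tdc2, dpr18 and BBS8, the enzyme and structural genes GstD9, SmydA-6 and Chd64, lncRNA:iab8 and lncRNA:CR44295, and CG15756, CG14692, CG15047, CG34409, CG6330, CG42394, CG34008 and CG15269. All 3 settings dropped 11, which were Chrac-14, NHP2, Nnf1a, Pop4, mtSSB, Lamtor5, mRpL51, msd1, CG6310, CG42239 and CG14434. Of the ligands, upd3 and Wnt6 were dropped by CPM of total reads and kept with the length trend removed, and chinmo likewise.

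**Figure D4:**
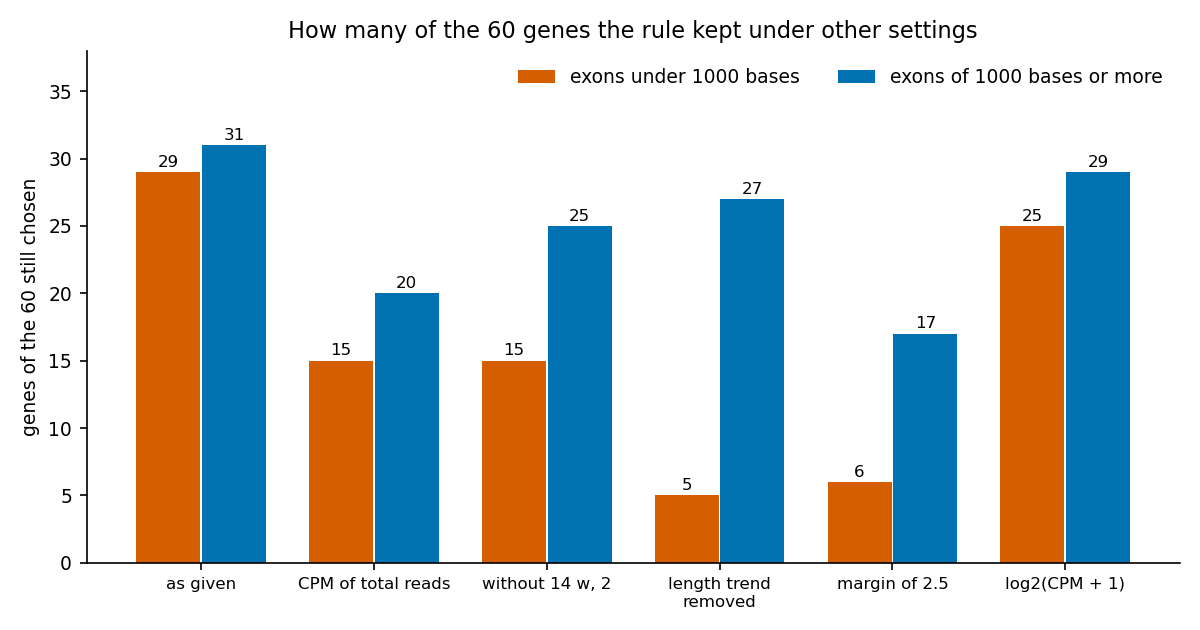
Number of the 60 genes that the same rule still chose (vertical axis) under the deposited values and 5 other settings, among them the second 14-week tumour left out (without 14 w, 2), for genes with exons under 1000 bases and for longer genes. With the length trend removed, 5 of 29 short genes and 27 of 31 longer genes were still chosen.

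The rule did not set tumour ages against each other, but it held every tumour above every other sample. The counts and medians below therefore describe the members, and nothing is read from their distance to the background. In limma, 0 of the 60 members were called between 14-week and 4-week tumours, where 0.0983% of all genes tested were called (0.0688% higher and 0.0295% lower at 14 weeks). Between 8-week and 4-week tumours 0 members were called, against 0.00983% of genes tested (0.00983% higher and 0% lower at 8 weeks). Between 14-week and 8-week tumours 0 members were called, against 0% of genes tested in either direction. At an unadjusted p below 0.05 there were 5, 6 and 7 members in these 3 contrasts, against 962, 1266 and 1080 of the 10177 genes tested, and voom also called 0 members in each. With 2 tumours at each age, the median standard error of a member's log2 difference was 0.65. Differences as large as -2.54 (CG14695) and 2.16 (Tdc2) between 14 and 4 weeks were not called. The 0 calls therefore do not show that members stayed level with age.

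The differences were nonetheless not centred alike. Members at 14 weeks differed from 4 weeks by a median of 0.05 on the log2(CPM + 1) scale, with 31 positive and 29 negative and a range of -2.54 to 2.16. At 8 weeks they differed from 4 weeks by a median of -0.73, with 9 positive and 51 negative, and at 14 weeks from 8 weeks by a median of 0.49, with 46 positive and 14 negative. With the deposited scaling, the median over all genes tested on that scale was 0 in each contrast. The 60 genes were read in the same libraries, so the splits into positive and negative are not independent observations. CPM of total reads moved the medians of the members to -0.32, -0.63 and 0.03 in the order of the contrasts above. The medians over all genes tested were then -0.07, 0 and -0.31. Removing the trend with exon length moved the medians of the members to -0.04, -0.50 and 0.37, with 0.0016, -0.06 and 0.06 over all genes tested. Without the second 14-week tumour the median between 14 and 4 weeks was -0.62 and that between 14 and 8 weeks 0.07, and without the first they were 0.34 and 0.95.

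The largest age differences belonged to CG14695, which differed by -2.54 ± 0.93 (SE) between 14 and 4 weeks (limma, adjusted p = 0.398), and to Tdc2, which differed by 2.16 ± 0.62 (adjusted p = 0.269). CG14695 stood at 103 and 141 CPM in 4-week tumours, 55.6 and 70.4 CPM in 8-week tumours and 20.9 and 18.9 CPM in 14-week tumours. Its ages did not overlap, and neither did those of Tdc2, given above, which ran the other way. CG12868 had the smallest unadjusted p values, at 615 and 341 CPM in 4-week tumours, 143 and 129 CPM in 8-week tumours and 107 and 187 CPM in 14-week tumours, a difference of -1.75 ± 0.41 between 8 and 4 weeks (adjusted p = 0.128) and of -1.69 ± 0.41 between 14 and 4 weeks (adjusted p = 0.188). chinmo differed by -1.14 ± 0.46 between 14 and 4 weeks (adjusted p = 0.457). Without the first 14-week tumour, 11 members and 922 genes of the whole table were called between 14 and 8 weeks, all 11 members higher at 14 weeks. The lone 14-week sample is then the second one, which is assumed to vary like the other groups, and the same 5 of the genes at p below 0.05 in that contrast, CG40472, CG6310, NHP2, CG42239 and ND-AGGG, were called there only.

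Metamorphed cells were also compared with control. The rule holds both groups below the tumours, a limit that the other genes tested do not have, so the counts and medians below describe the members and nothing is read from their distance to the background. limma called 21 of the 60 members (35.0%), against 40.6% of all genes tested. Of these members 2 were higher and 19 lower in metamorphed cells, and of all genes tested 21.6% were higher and 19.0% lower. With CPM of total reads the members split into 2 higher and 25 lower, and all genes into 1550 and 2696, against 2198 and 1934 with the deposited scaling. The median difference of the members was -0.52, against -0.03 over all genes tested. All metamorphed samples lay below all control samples in 20 members (33.3%, against 24.5% of genes tested) and above them in 3 (5%, against 27.3%). Fat body and haemocyte markers stood far higher in metamorphed cells, and the ovary and follicle cell list summed higher in control, as given above. The part of these marker levels in the differences was not tested.

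The transporter gene MFS3 had the largest difference, at -6.23 ± 0.30 (SE, limma adjusted p = 1.5e-08), with 0 reads in every metamorphed library. E(spl)mgamma-HLH followed at -4.74 ± 0.41 (adjusted p = 1.52e-06), with 2.55 to 3.25 CPM in metamorphed cells and 83.6 to 123 CPM in control. The other genes without a read in metamorphed cells were dpr18 at -3.37 ± 0.42 (adjusted p = 3.1e-05), shu at -3.29 ± 0.54 (adjusted p = 0.00032), BBS8 at -2.98 ± 0.43 (adjusted p = 0.000111) and Tdc2 at -2.36 ± 0.51 (adjusted p = 0.00223), and SmydA-6, which had reads in 1 control library only and was not called. The pseudogene CR14798 fell by 3.27, the selenoprotein gene BthD by 3.13 and the augmin gene msd1 by 3.09.

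Among the ligands, Wnt6 was called lower in metamorphed cells at -2.65 ± 0.61 (adjusted p = 0.00352) and upd3 at -2.10 ± 0.70 (adjusted p = 0.0279). The call of upd3 was lost in 8 of 23 alternatives, among them leaving out each of the 3 control samples in turn. mael, at -2.36 ± 0.81 (adjusted p = 0.0331), lost its call in 11. The 2 members higher in metamorphed cells were CG15269 at 2.27 ± 0.58 (adjusted p = 0.00685), which held in all 23 alternatives, and lncRNA:iab8 at 1.79 ± 0.54 (adjusted p = 0.0169), which lost its call in 4. In all, 13 of the 21 calls held in all 23 alternatives, and these included MFS3, E(spl)mgamma-HLH, Wnt6, dpr18, BBS8, Tdc2 and shu. The rest, with 4 to 12 lost calls each, were mael, CG15047, CG34008, lncRNA:iab8, lncRNA:CR44043, upd3, Nnf1a and SpdS.

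**Figure D5:**
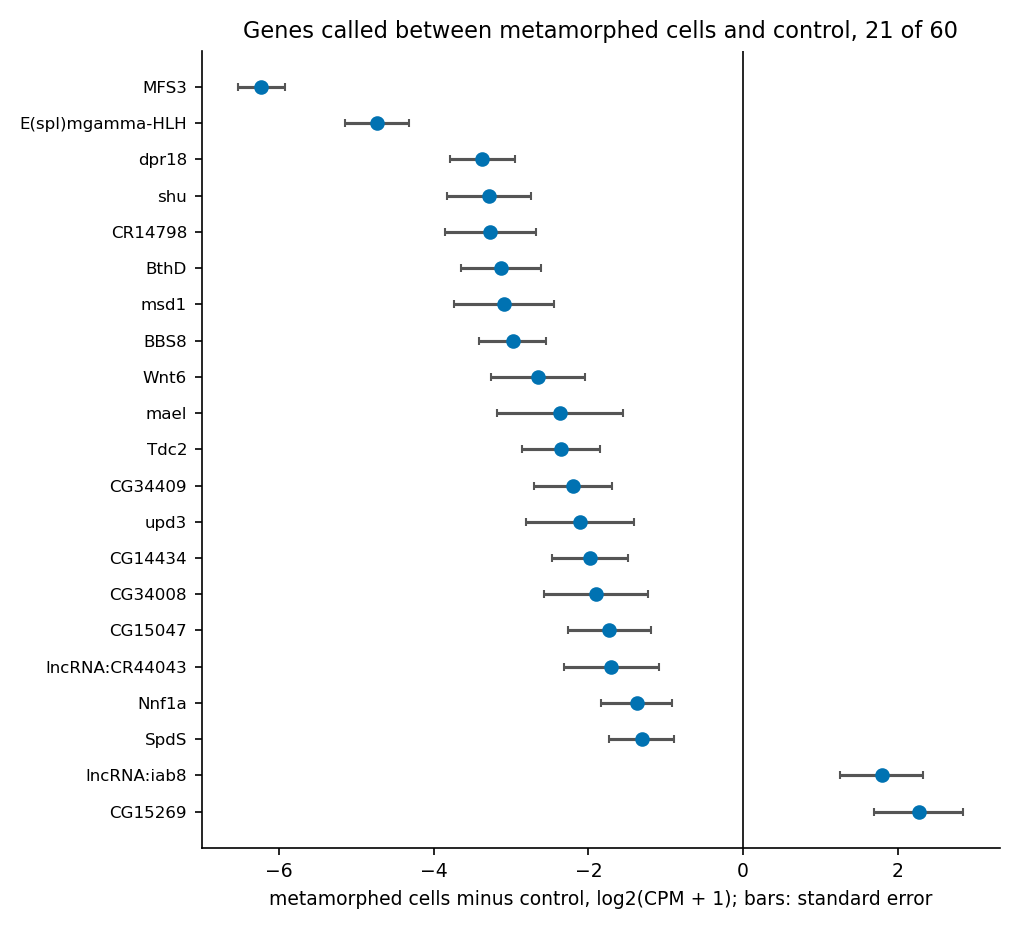
Difference between metamorphed cells and control in log2(CPM + 1) for the 21 of 60 genes called in that comparison, with bars of 1 standard error from limma (3 samples in each group). Values left of 0 are lower in metamorphed cells. MFS3 lies farthest left at -6.23, and CG15269 and lncRNA:iab8 are the 2 genes right of 0.

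The counts of 0 reads come from values that the rule used and are given as a description. No member had 0 reads in a tumour. In at least 1 metamorphed library 18 members had 0 reads (30.0%, against 17.0% of genes tested), and in at least 1 control library 6 did (10%, against 12.1%). In all 3 metamorphed libraries 6 members had 0 reads (10%, against 5.17% of genes tested), and in all 3 control libraries 0 members did (against 2.25%). Metamorphed libraries were the deepest, with 66046651 to 81447816 reads on genes, against 2072498 to 26137216 in control. The highest sample outside the tumours was a metamorphed library for 18 of the 60 members (30.0%, against 51.5% of genes tested) and a control library for 42 (70.0%, against 48.3%).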

How the data were processed

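RNA of ph505 tumours (2 samples at each of 3 ages), metamorphed ph505 cells (3 samples) and wild-type control discs (3 samples) was sequenced from SMART-seq2 libraries, the metamorphed ones on a different instrument. The authors aligned reads with TopHat2 2.0.12 and Bowtie2 2.2.3 to dm6 and deposited log2 CPM, counts scaled to a normalized library size, made with edgeR 3.16.5 in R 3.3.1. The read counter and its strand setting are not given in the sources used here. The deposited log2 values hold a prior count averaging 2 reads per library. Removing it gave linear CPM and whole reads, with 100% of values whole within 0.01 reads or, for larger counts, a share of 1e-06, so 3 reads correspond to 0.0420 to 1.18 CPM, depending on the library. The design had assumed CPM, and the test planned for it was used on the recovered values.

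Genes with at least 1 CPM in at least 2 samples (10177 genes) were tested with limma 3.58.1 in R 4.3.3, with a mean-variance trend, on log2(CPM + 1), a scale that understates changes of low genes. All 12 samples entered 1 model of 5 groups, tumours were the equal mean of the 3 ages, and p values were adjusted by Benjamini-Hochberg across the 10177 genes, at 0.05. The scripts were tested on simulated data. Tables were handled in Python 3.11.15 with pandas 2.3.3 and NumPy 2.4.6. Symbols, positions and exon lengths came from Ensembl release 115, which held 17215 of the 17521 gene IDs. Replicates come from the labels, and no 2 were identical.

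The members and the gene lists were chosen with earlier results of these data known. Members were named by level per kb of exon, margin, list, call, nearness to the limits, neighbourhood within 20 kb and spread among tumours. The alternatives were another pseudocount, no filter, CPM of total reads, quantile normalization, a replicate block, only the groups compared, the deposited values, voom on recovered reads, no trend, a threshold of 0.01, other limits of the rule and each sample left out. Removing the trend of values with exon length (lowess, span 0.3) was chosen after seeing the data. Promoter motifs were not counted here.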

Additional observations from a re-analysis of the deposited data

Results flagged for a closer look

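In 5 of the 60 genes, 1 tumour stood apart from the other 5 by Dixon's ratio, the gap of an extreme sample to its neighbour divided by the whole range, taken on log2(CPM + 1). Chance flags about 1 in 20 groups. In 4 of the 5 genes the tumour that stood apart was the second 14-week one, which was the highest in Dtd (ratio 0.756), ND-AGGG (0.637) and CG40472 (0.63) and the lowest in tin (0.683). In CG15269 the first 4-week tumour was the highest (0.666). Dtd, ND-AGGG and CG40472 have exons of 528, 745 and 460 bases, and tin and CG15269 of 1664 and 2122 bases. The ages of the tumours were pooled for this comparison, so an age difference and a single deviating library cannot be told apart.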

How the results depend on the processing

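The number of genes meeting the rule was 60 as deposited, 35 with CPM of total reads, 181 with a margin of 1.5, 23 with a margin of 2.5, and 46 to 88 when 1 sample was left out. No single gene followed through the alternatives changed the sign of its difference. The members' median between 14 and 4 weeks, 0.05, did. It was -0.32 with CPM of total reads, where the median over all genes tested was -0.07, and -0.22 with quantile normalization. With the length trend removed it was -0.04, and with 1 sample left out -0.62 to 0.34. The list medians and splits given above for those scalings moved too. Members called between metamorphed cells and control numbered 21, against 13 at a threshold of 0.01 and 15 to 22 with 1 sample left out. Members called between 14 and 8 weeks numbered 0, against 11 without the first 14-week tumour and 0 without any other sample. Over the whole table, calls between 14 and 4 weeks numbered 10, against 0 without the filter, 4 with CPM of total reads, 3 with quantile normalization, 1 with the replicate block, 0 with only the groups compared, with voom or at a threshold of 0.01, and 0 to 20 with 1 sample left out. Between 8 and 4 weeks they numbered 1, against 8 without the filter, 0 with CPM of total reads, with the replicate block, with only the groups compared, with voom, without the trend, at a threshold of 0.01 and with the length trend removed, and 0 to 25 with 1 sample left out. Between 14 and 8 weeks they numbered 0, against 4 without the filter, 2 without the trend and 0 to 922 with 1 sample left out. At a threshold of 0.01 the whole table gave 2734 calls between metamorphed cells and control, where 0.05 gave 4132, and 2093 between tumours and control, where 0.05 gave 3664. Apart from the stricter threshold, the filter and the samples left out, which change what is tested, the cause was not tested.

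Deviations from the group mean correlated by -0.0175 on average between same-numbered samples and by 0.0102 between other samples. With 2 samples at each tumour age, these deviations mirror each other. The averages therefore cannot decide whether replicate numbers pair the samples. Same-numbered tumours correlated by 0.2723 between 4 and 14 weeks, by -0.1107 between 4 and 8 weeks and by -0.1962 between 8 and 14 weeks. With the replicate block, 22 members were called between metamorphed cells and control and 0 between ages. Control replicate 1, with 2072498 reads, where 3 reads make 1.18 CPM, limits what low members can show in control.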
